A study of Mus musculus with 23 samples.

Results

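The choroid plexus is the secretory tissue of the brain ventricles, and 10 genes known as markers of its epithelium were followed here in hippocampal RNA. The genes, Ttr, Kl, Sostdc1, Clic6, Kcne2, Aqp1, Slc4a5, Folr1, Prlr and Otx2, were chosen by name, with earlier results of these data known. All 10 were among the 19733 genes of the deposited table and were measured in each of 23 mice. The mice were wild-type (WT) male C57BL/6J animals, assigned at 6 weeks of age and sampled after 16 weeks of treatment and 1 week of behavioral tests. The 9 Ctrl mice drank a control liquid diet, and the 7 EtOH mice an ethanol liquid diet, which models chronic alcohol intake. The 7 EtOH-UA mice drank the ethanol diet and were gavaged each day with 200 mg/kg of urolithin A (UA), a compound that gut bacteria make from plant polyphenols. All 3 groups received the gavage vehicle, 0.05% CMC-Na. The study asked what alcohol does to the hippocampus and whether UA counters it.

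The epithelium of the choroid plexus makes cerebrospinal fluid by moving sodium, bicarbonate and water into the ventricle, and it secretes carrier proteins into that fluid. It hangs in the lateral ventricle next to the fimbria and the hippocampus, and it is not part of the hippocampus. Transthyretin, the product of Ttr, is its best known transcript and is scarce in neurons. Kl is also known from neurons, where it is weaker.

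Each value is in FPKM, a count of fragments scaled to transcript length and to library size, which the authors deposited to 2 decimals, so levels of different genes can be set side by side per length of transcript. Summed FPKM ranged from 327896 to 404609 per mouse, and the highest sum belonged to EtOH-UA mouse 137, numbered as in the column names. Sequencing depth was not given in the sources used here. It was estimated from the steps in the low values of 20 single-transcript genes, where 1 FPKM stood for 16.6 fragments per kilobase (median, quartiles 15.9 and 17.0). By that estimate and the longest annotated transcript, the lowest values of the members rested on about 0.871 fragments for Folr1, 1.29 for Otx2, 1.70 for Slc4a5 and 4.36 for Aqp1, and the lowest Ttr value on about 76.4. Values of the low genes in the lowest mice are therefore coarse. The hippocampal neuron markers Camk2a (702 to 1038 FPKM), Slc17a7 (374 to 508 FPKM) and Neurod6 (71.3 to 133 FPKM) were high in all 23 mice, as the tissue label requires.

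The members lie on 8 chromosomes of the mouse assembly GRCm38 (mm10). Kcne2 (chr16:92292389-92298133) and Clic6 (chr16:92498147-92541241) share a chromosome, as do Aqp1 (chr6:55336299-55348555) and Slc4a5 (chr6:83207580-83304945). Kl spans chr5:150952607-150993817, Folr1 chr7:101858331-101870788, Sostdc1 chr12:36314169-36318452, Otx2 chr14:48656781-48667644 and Prlr chr15:10177238-10349190. Exons of other annotated genes overlap those of 2 members. Otx2 overlaps a noncoding RNA on the opposite strand and a model of uncertain status on its own. Prlr overlaps a protein-coding gene on its own strand. None of these neighbours is among the genes of the deposited table. Whether the counting used strand was not given in the sources used here, and it could part only the reads of the opposite strand. Reads shared with these neighbours therefore cannot be separated.

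Since the members moved together between mice, promoters are shown for 4 of them, the windows with a motif in Slc4a5 and Otx2 beside windows without one in Kl and Kcne2. RefSeq promoter windows (GRCm38.p6, from 250 bases before to 50 bases after a transcript start) were at hand for 6 of the 10 members, as 12 windows. The 250 bases before the start are printed 5′ to 3′ on the strand of the gene. Capitals mark a match to either of 2 motifs searched on both strands, the core site TAATCC of OTX factors (reverse complement GGATTA) and the TATA box TATAAA (reverse complement TTTATA).
Kl, chr5:150952357-150952606, plus strand: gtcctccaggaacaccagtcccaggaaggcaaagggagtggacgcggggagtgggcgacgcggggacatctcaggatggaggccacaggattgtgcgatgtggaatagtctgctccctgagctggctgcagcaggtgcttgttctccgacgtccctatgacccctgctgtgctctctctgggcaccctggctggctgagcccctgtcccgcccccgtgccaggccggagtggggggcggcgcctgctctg
Kcne2, chr16:92292139-92292388, plus strand: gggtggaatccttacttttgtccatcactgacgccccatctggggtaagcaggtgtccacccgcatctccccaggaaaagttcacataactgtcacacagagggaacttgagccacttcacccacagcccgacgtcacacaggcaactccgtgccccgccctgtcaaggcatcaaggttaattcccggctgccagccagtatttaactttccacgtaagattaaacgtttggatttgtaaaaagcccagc
Slc4a5, chr6:83237125-83237374, plus strand: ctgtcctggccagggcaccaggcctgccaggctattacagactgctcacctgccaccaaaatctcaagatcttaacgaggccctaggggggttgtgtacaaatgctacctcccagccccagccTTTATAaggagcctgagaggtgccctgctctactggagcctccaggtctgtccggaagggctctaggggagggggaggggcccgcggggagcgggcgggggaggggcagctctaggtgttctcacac
Otx2, chr14:48665110-48665359, minus strand: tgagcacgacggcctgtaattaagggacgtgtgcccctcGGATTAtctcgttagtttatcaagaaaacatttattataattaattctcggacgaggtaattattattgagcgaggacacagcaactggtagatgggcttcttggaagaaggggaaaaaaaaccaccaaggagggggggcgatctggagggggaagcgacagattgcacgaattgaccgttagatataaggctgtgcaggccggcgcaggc
The OTX core was found in 1 of the 12 windows, at position -211 from that start of Otx2, against 7.06% of 32817 mouse promoter windows of this length. The letters of the TATA box were matched in 2 of the 12, at -127 in Slc4a5 (as the reverse complement) and at -192 in another window of Otx2, against 13.6% of all windows. Both counts lie near the share of all windows, and whether any match acts was not tested. The Kl window printed was rich in G and C (66.8%), and that of Otx2 was at 48.4%. Neither motif was shared by the 6 members.

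Ttr (chr18:20664209-20674326) encodes the carrier of thyroxine and retinol-binding protein, and spread wider between mice of a group than any other gene tested. Its standard deviation within groups was 3.32 on the scale of log2(FPKM + 0.1), rank 1 of 15986 genes. The 9 Ctrl mice were at 3.88, 9.03, 11.6, 44.4, 56.1, 981, 1592, 2087 and 2914 FPKM. The 7 EtOH mice were at 58.4, 470, 1042, 1249, 2359, 2538 and 5628 FPKM. The 7 EtOH-UA mice were at 11.3, 45.5, 70.2, 1811, 1832, 3356 and 7705 FPKM. Each group held mice at or below 70.2 FPKM and mice at 1592 FPKM or more, and the 3 groups overlapped over most of their range. Ttr was the most abundant gene of the whole table in 10 mice, and made up 1.90% of the summed FPKM of EtOH-UA mouse 137. In Ctrl mouse 135 it ranked 10065, at 0.00107% of the sum.

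The ordered Ttr values broke most widely at 1 place. Between EtOH-UA mouse 178 (70.2 FPKM) and EtOH mouse 192 (470 FPKM) lay a gap of 6.70-fold, the largest in the series. Below it were 9 mice, of which 5 were Ctrl, 1 was EtOH and 3 were EtOH-UA, and above it were 14, of which 4 were Ctrl, 6 were EtOH and 4 were EtOH-UA. A smaller gap of 3.82-fold, from 11.6 to 44.4 FPKM, set the 4 lowest mice apart from the rest. These sets were drawn from Ttr itself, so differences between them are a description, and no test was made of one against the other.

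**Figure D1:**
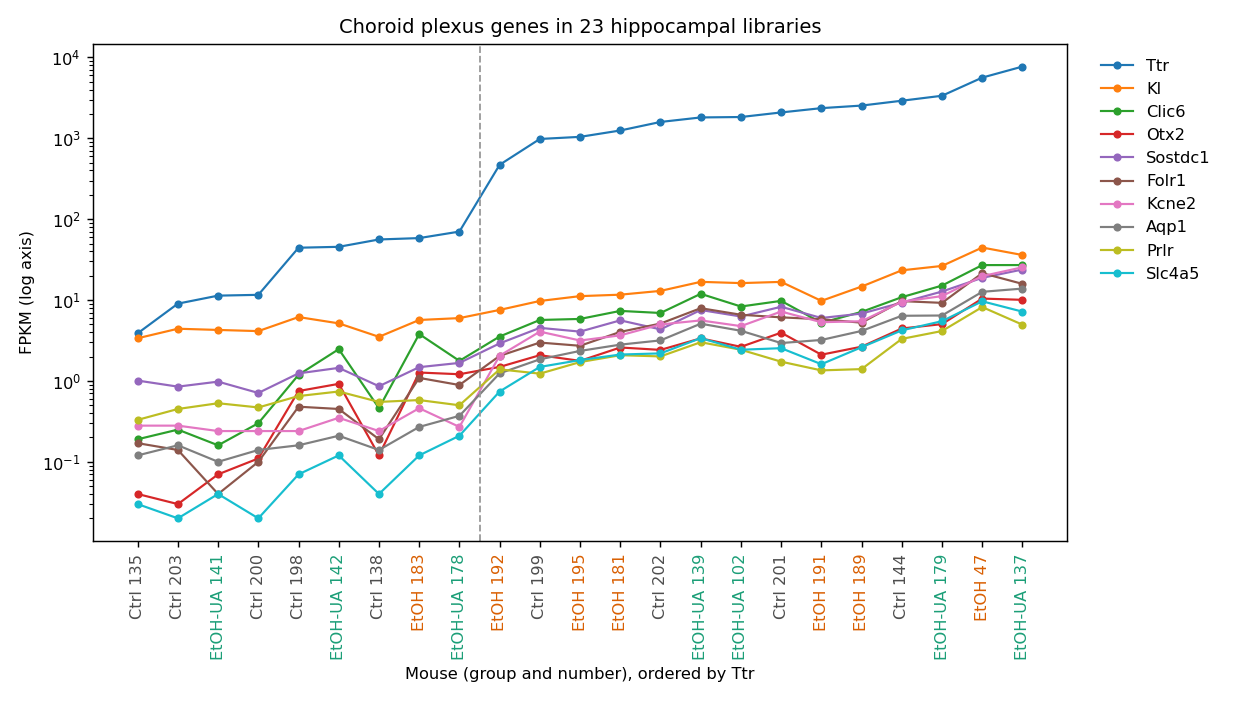
FPKM (log axis) of the 10 choroid plexus genes in each of the 23 mice, ordered along the horizontal axis by Ttr and labelled by group and mouse number; each line joins the values of 1 gene, and the dashed line marks the gap in Ttr from 70.2 to 470 FPKM. The other 9 genes rise across the same gap, and the highest mice of all 10 are EtOH mouse 47 and EtOH-UA mouse 137.

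The other secreted or shed products were Kl and Sostdc1. Kl, the membrane protein klotho whose outer part is shed into cerebrospinal fluid and blood, was the member that varied least, from 3.37 to 44.6 FPKM, a 13.2-fold range. It was at 3.37 to 6.16 FPKM in the 9 mice below the gap and at 7.55 to 44.6 FPKM in the 14 above it. Sostdc1, a secreted antagonist of BMP and Wnt signals, was at 0.71 to 1.67 FPKM and at 2.91 to 23.9 FPKM in the same mice. For both genes no mouse below the gap reached a mouse above it, and both kept a measurable level in the lowest mice. Kl exceeded Ttr nowhere, but in Ctrl mouse 135 the levels came close, at 3.37 FPKM for Kl and 3.88 FPKM for Ttr.

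The transport genes fell further. Kcne2, a beta subunit of potassium channels, was at 0.24 to 0.46 FPKM in the 9 mice below the gap and at 2.05 to 25.4 FPKM in the 14 above it. Aqp1, the water channel of the apical membrane, was at 0.10 to 0.37 FPKM and at 1.24 to 13.9 FPKM. Slc4a5, a sodium-bicarbonate cotransporter, was at 0.02 to 0.21 FPKM and at 0.74 to 9.65 FPKM. These 3 genes left the widest space between the sets apart from Ttr, 4.46-fold for Kcne2, 3.35-fold for Aqp1 and 3.52-fold for Slc4a5 from the highest mouse below to the lowest above. Folr1, the folate receptor that carries folate into the fluid, was at 0.04 to 1.09 FPKM below and at 2.04 to 21.5 FPKM above.

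Clic6, a chloride intracellular channel protein, was the only member in which the sets met. EtOH mouse 183, below the Ttr gap at 58.4 FPKM, had 3.80 FPKM of Clic6, and EtOH mouse 192, above it at 470 FPKM, had 3.54 FPKM. Prlr, the prolactin receptor, was at 0.33 to 0.74 FPKM below the gap and at 1.23 to 8.19 FPKM above it. Otx2, the transcription factor that specifies and maintains this epithelium, was at 0.03 to 1.27 FPKM and at 1.49 to 10.4 FPKM.

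Among the 9 mice below the gap most members set the same 4 mice apart. Ctrl mouse 198, EtOH-UA mouse 142, EtOH mouse 183 and EtOH-UA mouse 178 had Clic6 at 1.19, 2.47, 3.80 and 1.77 FPKM, against 0.16 to 0.46 FPKM in the other 5. Otx2 was at 0.75, 0.92, 1.27 and 1.21 FPKM in the same 4 mice and at 0.03 to 0.12 FPKM in the other 5. Folr1 was at 0.48, 0.45, 1.09 and 0.89 FPKM in the 4 and at 0.04 to 0.19 FPKM in the 5. Kl (5.15 to 6.16 against 3.37 to 4.42 FPKM), Sostdc1 (1.24 to 1.67 against 0.71 to 1.01 FPKM) and Slc4a5 (0.07 to 0.21 against 0.02 to 0.04 FPKM) separated these mice as well. Kcne2 drew no such line, since the 4 mice were at 0.24, 0.35, 0.46 and 0.27 FPKM and the other 5 at 0.24 to 0.28 FPKM. Ctrl mouse 138 had 56.1 FPKM of Ttr, more than Ctrl mouse 198 at 44.4 FPKM, but 0.46 FPKM of Clic6 against 1.19 and 0.12 FPKM of Otx2 against 0.75. Thus 6 members set these 4 mice apart, Aqp1 met at 0.16 FPKM, and Ttr, Kcne2 and Prlr overlapped. These 4 mice were picked out after their values were seen, and the split was not tested.

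**Figure D2:**
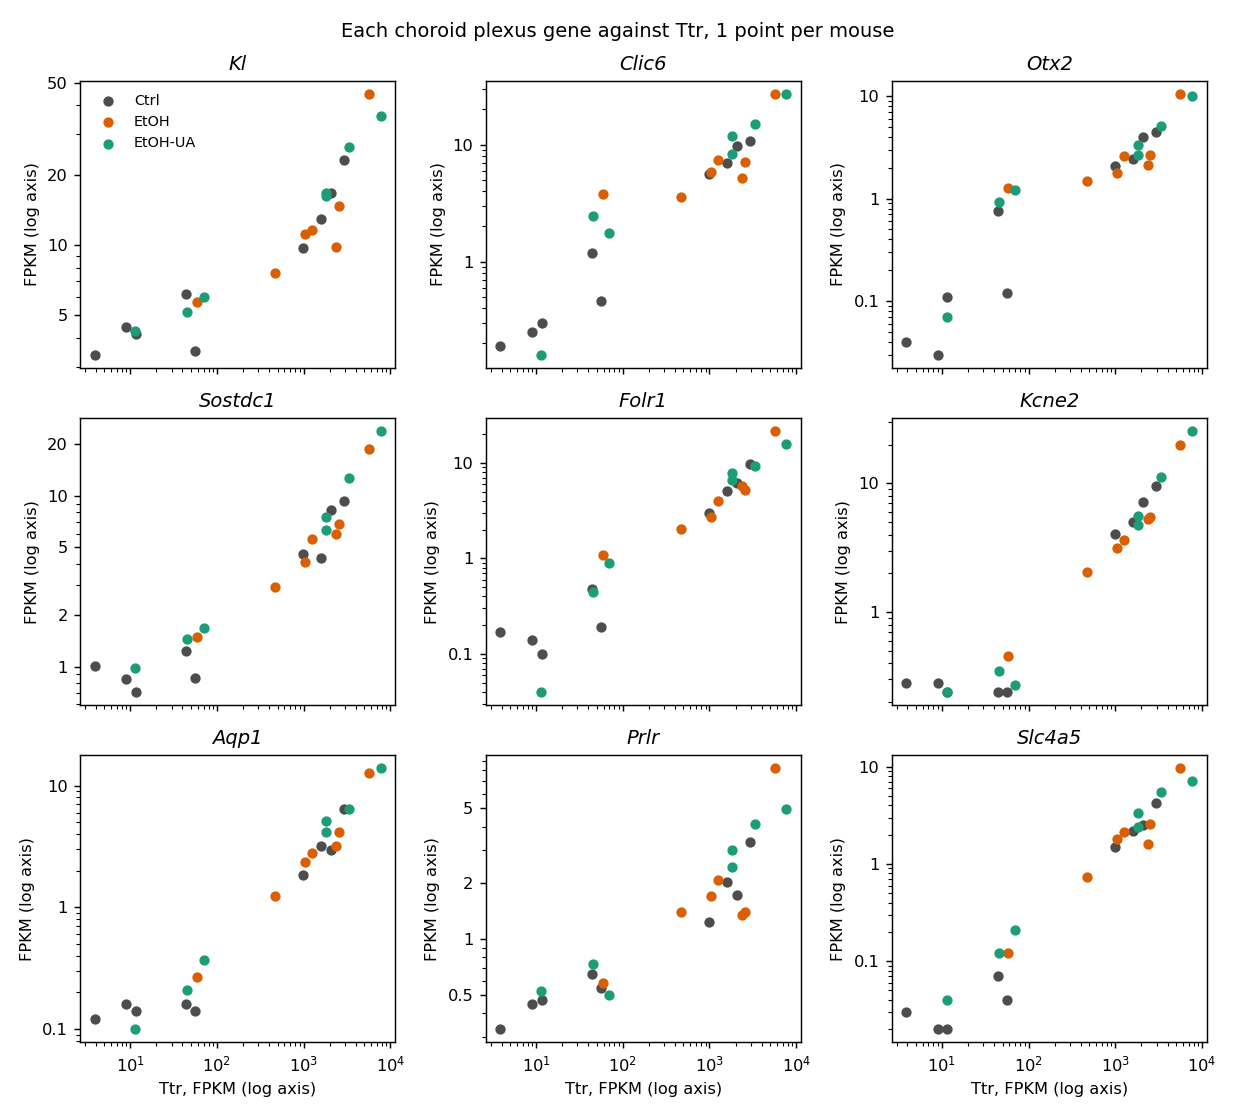
FPKM of each of the other 9 choroid plexus genes against Ttr (both axes log), 1 point per mouse, coloured by group (Ctrl grey, EtOH orange, EtOH-UA green). Above 470 FPKM of Ttr all 9 genes rise with it, while below 70.2 FPKM Kcne2 stays between 0.24 and 0.46 FPKM and Clic6 runs from 0.16 to 3.80 FPKM.

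Whether the members moved together within groups was tested by correlation of log2(FPKM + 0.1) after the group means were removed. Because Ttr fell into 2 sets of mice, Ttr was not correlated with the other members across all 23. In the 14 mice above the gap, Pearson's r with Ttr was 0.96 for Kcne2 (permutation p = 1e-05, the smallest the 100000 permutations can give, adjusted p = 9e-05 over 18 relations; rho = 0.93, p = 1e-05). For Aqp1 it was 0.95 (permutation p = 1e-05; rho = 0.95, p = 2e-05), and for Sostdc1 0.94 (permutation p = 3e-05; rho = 0.90, p = 0.00015). All 9 genes passed an adjusted p of 0.05 on both measures, the weakest being Prlr with r = 0.71 (permutation p = 0.0112, adjusted p = 0.0224; rho = 0.64, p = 0.0223, adjusted p = 0.0402). Without the 2 mice farthest from the median of Ttr, r over 12 mice ran from 0.74 to 0.96, and Prlr alone no longer passed (adjusted p = 0.0515).

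Below the gap the same test used 8 mice, because EtOH mouse 183 was the lone EtOH mouse and has no deviation from a group mean. Here r with Ttr was 0.79 for Clic6 (exact permutation p = 0.0153, adjusted p = 0.0275; rho = 0.81, p = 0.0222, adjusted p = 0.0402), 0.78 for Otx2 (exact permutation p = 0.0306, adjusted p = 0.0458; rho = 0.79, p = 0.0333, adjusted p = 0.0545) and 0.71 for Slc4a5 (exact permutation p = 0.0306, adjusted p = 0.0458; rho = 0.75, p = 0.0444, adjusted p = 0.0667). The other 6 did not pass, from Prlr at r = 0.72 (exact permutation p = 0.0792, adjusted p = 0.095; rho = 0.67, p = 0.101) to Kcne2 at r = -0.11 (exact permutation p = 0.833; rho = -0.17, p = 0.683). With the 2 farthest mice left out none of the 9 passed over 6 mice, where few permutations exist, while r was 0.78 for Clic6, 0.75 for Otx2 and 0.85 for Slc4a5.

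Taking every pair of the 10 genes, r in the 14 mice ran from 0.71 (Ttr with Prlr) to 0.99 (Sostdc1 with Kcne2), with a median of 0.94, and 36 of 45 pairs were at 0.9 or more. In the 8 mice the range was -0.11 (Ttr with Kcne2) to 0.98 (Folr1 with Slc4a5), the median 0.68, and 5 of 45 pairs were at 0.9 or more. Each pair shares its libraries, and members near 0.1 FPKM there rest on few fragments, so these values are given as a description.

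The ratio of each member to Ttr was narrower above the gap than below it. Per 1000 FPKM of Ttr, the 14 mice above the gap had 2.16 to 4.36 FPKM of Kcne2, a 2.02-fold range, while Ttr itself ranged 16.4-fold in these mice. Aqp1 was at 1.36 to 2.82 FPKM per 1000 of Ttr and Folr1 at 2.06 to 4.38. Prlr was the least constant, at 0.552 to 2.96, a 5.36-fold range, and Kl ran from 4.14 to 16.1. Below the gap, where Ttr is low, the ratios reached higher and ran wider, at 3.84 to 72.2 for Kcne2 and 62.6 to 869 for Kl. EtOH mouse 191 had the lowest ratio for Kl, Clic6, Otx2, Sostdc1, Aqp1 and Slc4a5.

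The highest pair of mice differed in their order from gene to gene. EtOH-UA mouse 137 exceeded EtOH mouse 47 1.37-fold in Ttr, 1.29-fold in Kcne2, 1.27-fold in Sostdc1 and 1.10-fold in Aqp1. Clic6 was level, at 27.1 FPKM in both. EtOH mouse 47 was the higher in Prlr, at 8.19 against 4.96 FPKM, in Folr1, at 21.5 against 15.9 FPKM, in Slc4a5, at 9.65 against 7.19 FPKM, and in Kl, at 44.6 against 36.0 FPKM. Otx2 stood at 10.4 and 10.1 FPKM in mice 47 and 137.

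The comparison of EtOH with Ctrl mice asks what alcohol changed. All 10 members had a higher mean in EtOH mice, but none differed beyond the spread between mice after adjustment over all genes. Of the 15986 genes tested 0 were called with limma at an adjusted p under 0.05 (0%), and so were 0 of the 10 members, each at an adjusted p of 0.999. At an unadjusted p under 0.05 stood 2 members of 10, Clic6 and Otx2, against 3.05% of all genes. A log2 fold change of 1 or more was found for 8 of 10 members, against 0.45% of all genes, and the median over members was 1.72 against -0.003 over all genes. The members moved together between mice, so the 8 are not independent. All 10 were also among the 200 genes that spread most within groups, where large differences of means arise more easily than in most genes. In bulk RNA, a difference in the number of cells of a type and one in RNA per cell cannot be told apart. The choroid plexus is not part of the hippocampus, and how much of it each sample held was not given in the sources used here. A difference in that amount cannot be told apart from an effect of the diet.

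Ttr was higher in EtOH mice by 2.99 on the log2 scale, which is 7.94-fold (SE 1.53, 95% interval -0.17 to 6.15, exact permutation p = 0.0829 over 11440 splits, two-sided). All 7 EtOH mice were above the Ctrl median of 56.1 FPKM, and 4 of 9 Ctrl mice were at 981 FPKM or more. The Ttr mean was 855 ± 1105 FPKM (SD, n = 9) in Ctrl mice and 1906 ± 1876 FPKM (SD, n = 7) in EtOH mice. The interval held no difference as well as one of 70.9-fold.

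Clic6 was at 0.19, 1.19 and 10.9 FPKM (lowest, median and highest) in Ctrl mice and at 3.54, 5.84 and 27.1 FPKM in EtOH mice. Its log2 fold change was 1.98 (SE 0.90, 95% interval 0.11 to 3.85, exact permutation p = 0.0491, limma adjusted p = 0.999). Otx2 was at 0.03, 0.75 and 4.45 FPKM in Ctrl mice and at 1.27, 2.11 and 10.4 FPKM in EtOH mice, a log2 fold change of 1.77 (SE 0.83, 95% interval 0.06 to 3.48, exact permutation p = 0.0637). In both genes the lowest EtOH mouse lay above the Ctrl median and below the highest Ctrl mouse. Folr1 was higher by 1.92 on the log2 scale (exact permutation p = 0.0729). With the exact permutation p in brackets, Slc4a5 was higher by 1.74 (0.114), Aqp1 by 1.69 (0.0934), Kcne2 by 1.53 (0.146), Sostdc1 by 1.15 (0.104), Prlr by 0.86 (0.131) and Kl by 0.69 (0.191). Kl and Prlr, which varied least, had the smallest differences, and their intervals (-0.32 to 1.70 and -0.24 to 1.96) were the narrowest of the 10.

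**Figure D3:**
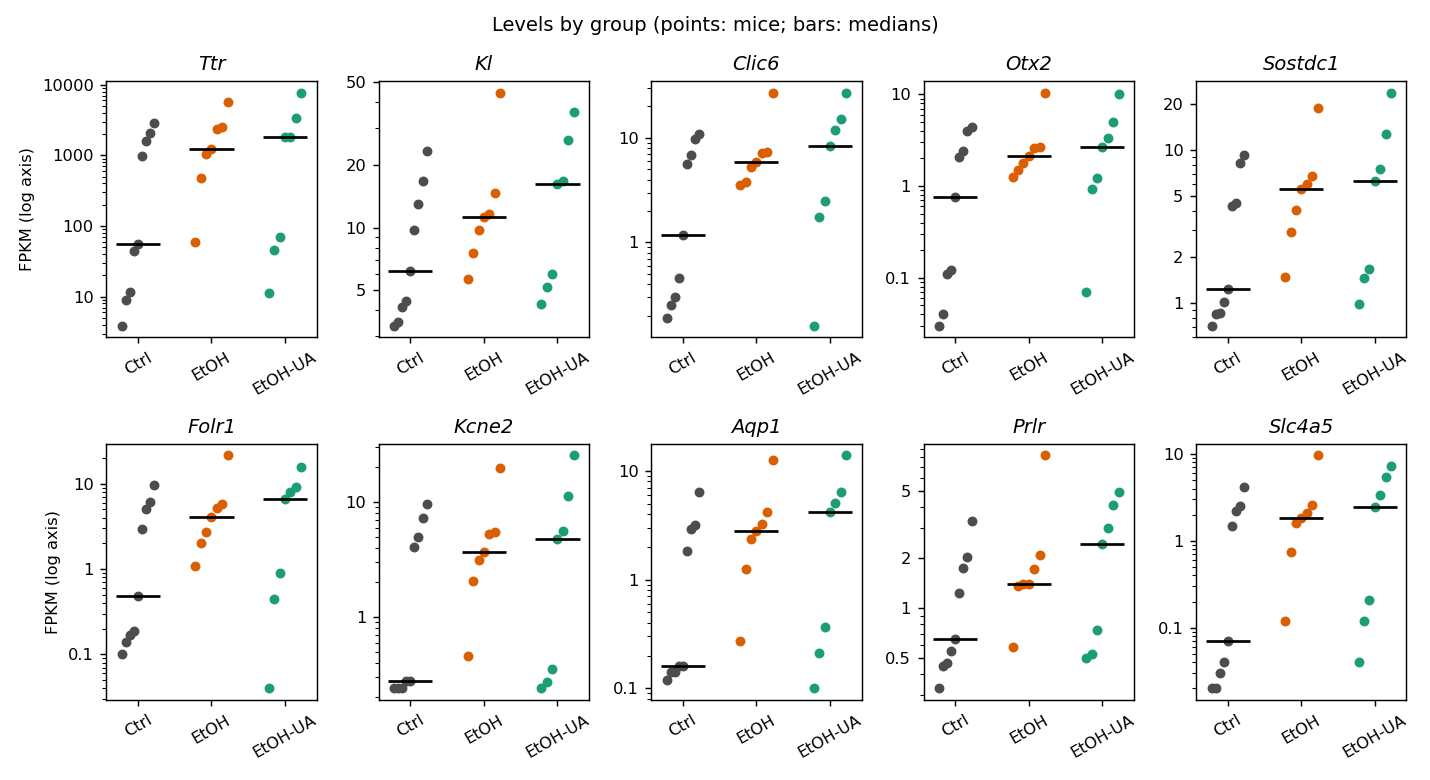
FPKM (log axes, 1 panel per gene) of the 10 choroid plexus genes in 9 Ctrl, 7 EtOH and 7 EtOH-UA mice; each point is a mouse and each bar a group median. Ctrl and EtOH-UA mice spread over low and high levels, whereas 6 of 7 EtOH mice lie at 470 FPKM of Ttr or more and 1 lies at 58.4 FPKM.

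The comparison of EtOH-UA with EtOH mice asks what UA changed under alcohol. It shares its EtOH mice with the comparison above. All 10 members had a lower mean of log2 values in EtOH-UA mice, from -1.23 for Ttr (SE 1.62, 95% interval -4.57 to 2.12, exact permutation p = 0.464 over 3432 splits) to -0.01 for Kl (exact permutation p = 0.989), with a median of -0.49. No member passed an adjusted p of 0.05 in limma (adjusted p from 0.911 to 0.998), and neither did any of the 15986 genes (0%). At an unadjusted p under 0.05 stood 0 of 10 members and 3.27% of all genes, and 1 of 10 members, Ttr, had a log2 fold change of -1 or less against 0.0626% of all genes. With each mouse left out in turn the Ttr difference ran from -1.92 to -0.35, and it rose above -1 without EtOH mouse 47 or without EtOH-UA mouse 141, 142 or 178. The medians in FPKM ran the other way for Ttr, 1249 in EtOH and 1811 in EtOH-UA mice, and for all of the other 9, for example 3.66 and 4.76 for Kcne2 and 11.2 and 16.2 for Kl. The sign of the difference was therefore not stable, and leaving out EtOH-UA mouse 141 alone made the log2 difference positive in 7 of the 10.

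The comparison of EtOH-UA with Ctrl mice shares its mice with both. All 10 members were higher in EtOH-UA mice on the log2 scale, from 0.68 for Kl to 1.76 for Ttr (95% interval -1.39 to 4.92), and the exact permutation p ran from 0.193 to 0.404. In limma 0 of 10 members and 0 of 15986 genes (0%) passed an adjusted p of 0.05, each member being at an adjusted p of 0.999. At an unadjusted p under 0.05 stood 0 of 10 members, against 3.08% of all genes. A log2 fold change of 1 or more was found for 7 of 10 members, against 0.244% of all genes. Here too the members moved together and spread widely within groups, so the 7 are not independent.

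**Figure D4:**
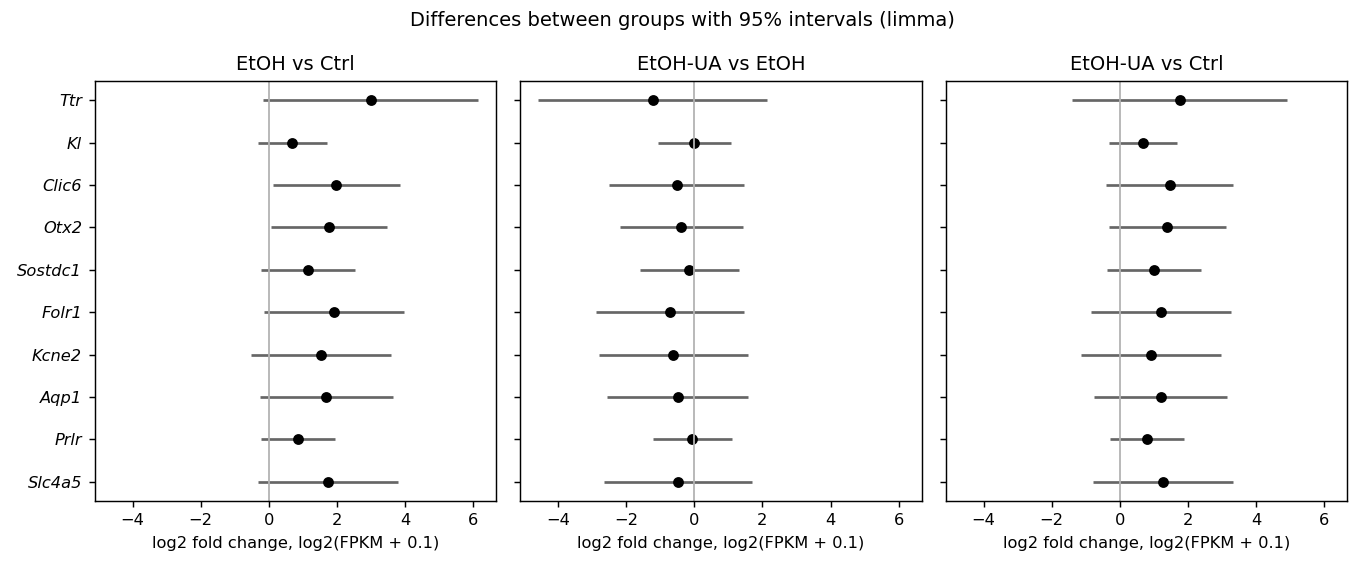
Log2 fold changes of the 10 choroid plexus genes on the scale of log2(FPKM + 0.1), with 95% intervals from limma over 23 mice, for the 3 comparisons of groups; the vertical line marks no difference. In EtOH against Ctrl mice the intervals of Clic6 (0.11 to 3.85) and Otx2 (0.06 to 3.48) leave out 0 before adjustment, and in the other comparisons every interval crosses it.

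The members were also set against the rest of the transcriptome by their spread within groups. All 10 were among the 200 genes with the largest standard deviation within groups, which are 1.25% of the genes tested. Ttr ranked 1, Kcne2 11 (2.16 on the log2 scale), Folr1 12 (2.16), Slc4a5 13 (2.15), Aqp1 18 (2.05), Clic6 24 (1.96), Otx2 28 (1.80), Sostdc1 56 (1.44), Prlr 118 (1.15) and Kl 146 (1.06). Over all mice the highest value exceeded the lowest 1986-fold in Ttr, and between 24.8-fold (Prlr) and 538-fold (Folr1) in the others apart from Kl.

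The mean standardized profile of the 10 genes over the 23 mice was then compared with every other gene whose mean was at least 1 FPKM, 12904 genes with the members. The closest was Cldn2, a claudin of leaky epithelia, with r = 0.995 and rho = 0.992, at 0.07 to 9.61 FPKM. Enpp2, the enzyme autotaxin, followed with r = 0.993 and rho = 0.990, at 32.2 to 837 FPKM. Then came F5 (0.990), Mfrp (0.989), Tmem72 (0.986), the potassium channel gene Kcnj13 (0.984), Slc2a12 (0.982), Ecrg4 (0.981), Steap1 (0.981) and Col8a2 (0.978). Of these 10 genes 9 were on the list of other choroid plexus epithelium genes, Col8a2 being the exception, and 47 genes in all reached r = 0.9. That list was chosen with earlier results of these data known, so the match is a description and no independent check. The gap in Ttr splits the 23 mice into 2 sets. Within the 14 mice above the gap r was 0.98 for Cldn2 and 0.99 for Enpp2, and within the 9 below it 0.95 and 0.91. Over the 10 named genes it ran from 0.93 (Steap1) to 0.99 (Enpp2) above the gap and from 0.71 (Kcnj13) to 0.97 (Col8a2) below it, with Steap1 at 0.79.

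Of 45 measured genes on that list (47 were listed), 30 had r of 0.9 or more with the members, and the median r was 0.93. In EtOH against Ctrl mice 0 of the 45 passed an adjusted p of 0.05, 3 an unadjusted one (3.05% of all genes), and 15 had a log2 fold change of 1 or more (0.45% of all genes), with a median of 0.87. The genes share these mice, so the 15 are not independent, and 24 of the 45 were among the 200 genes that spread most within groups. The most abundant of the list besides Enpp2, Atp1b1 (676 to 806 FPKM, r = -0.44) and Slc4a10 (46.3 to 79.4 FPKM, r = 0.37), did not follow the members. Both are also known from neurons. The summed level of the list, which Atp1b1 dominates, was 930 to 1010 FPKM in the 9 mice below the gap and 1101 to 2159 FPKM in the 14 above it.

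Ependymal cells line the ventricle wall that faces the choroid plexus, and 16 of their genes were all measured. Their median r with the members was 0.68, and none reached 0.9. Their summed level was 14.5 to 35.4 FPKM in Ctrl mice, 29.0 to 47.4 FPKM in EtOH mice and 19.1 to 51.1 FPKM in EtOH-UA mice. In EtOH against Ctrl mice 13 of the 16 had an unadjusted p under 0.05, against 3.05% of all genes and 2 of the 10 members, and 0 passed an adjusted p of 0.05. The 16 are genes of 1 cell type measured in the same mice, so the 13 are not independent. Over the 16 the median log2 fold change was 0.83, and the 3 most abundant were Rarres2 (0.40), Fam183b (-0.12) and Rsph1 (0.49). The ependymal sums overlapped across the Ttr gap, at 14.5 to 46.9 FPKM below it and 22.3 to 51.1 FPKM above. Their part in the differences of the members between groups was not tested.

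Other neighbours of the hippocampus followed the members less. Of 16 genes of the leptomeninges and of stroma, the median r was 0.46 and 1, Igf2, reached 0.9 (r = 0.96, up to 52.4 FPKM), while the abundant Ptgds had r = 0.48 and Dcn -0.13. The median r was 0.01 over 11 endothelial genes (Itm2a, Ly6c1 and Slco1a4 leading), 0.00 over 7 blood genes (Hbb-bs, Hba-a1, Hba-a2), 0.15 over the genes of thalamus and habenula (Prkcd, Slc17a6, Zic1) and 0.13 over 14 genes of hippocampal neurons. It was -0.11 over 7 genes of oligodendrocytes (Mbp and Mobp among them), 0.04 over 7 of astrocytes (Slc1a2, Slc1a3, Gfap) and -0.32 over 7 of microglia (C1qa and Csf1r among them). In none of these 7 lists did a gene reach 0.9 or pass an adjusted p of 0.05 in EtOH against Ctrl mice. Among the hippocampal genes, chosen after their values were seen, Spink8 (5.49 to 32.8 FPKM, r = -0.61) and Fibcd1 (3.62 to 34.3 FPKM, r = -0.53), both known from field CA1, ran against the members, while Wfs1, known from the same field, did not (19.0 to 38.6 FPKM, r = 0.25), and Prox1, known from the dentate gyrus, ran with them (5.66 to 23.2 FPKM, r = 0.52). Their part in the levels of the members was not tested.

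**Figure D5:**
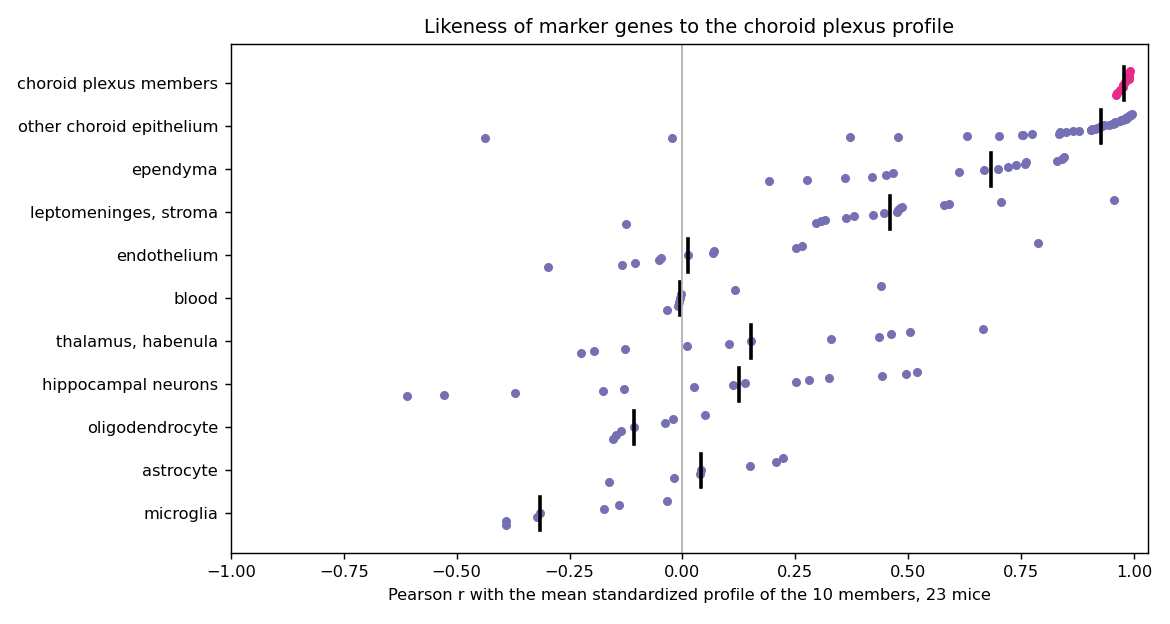
Pearson's r of each marker gene with the mean standardized profile of the 10 choroid plexus genes over 23 mice (horizontal axis), by marker list (rows); each point is a gene and each black bar the median of a list. The members form the profile themselves, which raises their r, and have a median of 0.98. The median is 0.93 for other choroid epithelium genes, 0.68 for ependymal genes and 0.13 for hippocampal neurons. The lists were chosen with earlier results of these data known.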

How the data were processed

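Hippocampal RNA of 23 mice was sequenced with paired-end reads of 100 bases. The authors aligned the reads to mm10, and per the labels' processing notes used HISAT2 2.1.0, Bowtie2 2.2.5, RSEM 1.2.8, StringTie and DESeq. The deposited table holds FPKM to 2 decimals, and 283 of 19733 genes were at 0 in all mice. Its columns carry mouse numbers, and were assigned to groups by name. No 2 columns were identical and no mouse was left out. The labels do not say that the mice were processed in batches.

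Because FPKM are not counts, the count test of the study was not rerun. The 15986 genes averaging 0.1 FPKM or more were fitted as log2(FPKM + 0.1) with limma 3.58.1 in R 4.3.3, as 1 model of 3 groups with an intensity trend, with p-values adjusted after Benjamini and Hochberg across the genes fitted. A fold change on this scale understates the change of low genes. Differences of single genes were also tested by two-sided exact permutation of the mice, and correlations by 100000 permutations within groups, or by all 720 permutations where fewer mice were used, with Benjamini-Hochberg adjustment over 18 relations (Python 3.11.15, scipy 1.17.1). The limma step was tested on simulated data. The members and lists were chosen with earlier results of these data known.

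Named genes were the 10 members, the 10 other genes most like their mean profile (averaging 1 FPKM or more), and the 3 most abundant genes of each marker list, of which some are not reported here. Igf2, a list gene, falls under that rule, and Spink8, Fibcd1, Wfs1 and Prox1 were added after their values were seen. Alternatives were a pseudocount of 1 or 0.01, other filters, other scalings, robust eBayes, array quality weights, only the mice of the 2 groups, and each mouse left out in turn. Coordinates and promoters come from RefSeq, and transcript lengths from GENCODE.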

Additional observations from a re-analysis of the deposited data

Results flagged for a closer look

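EtOH mouse 47 stood apart from the other 6 EtOH mice. On the FPKM scale the gap from this mouse to the next, as a share of the range of the 7 mice, was 0.769 for Kl, 0.838 for Clic6, 0.849 for Otx2, 0.693 for Sostdc1, 0.770 for Folr1, 0.740 for Kcne2, 0.686 for Aqp1, 0.803 for Prlr and 0.739 for Slc4a5, all past the critical value of 0.568 for 7 mice. Its Clic6 was 27.1 FPKM against 7.34 in the next EtOH mouse, and its Prlr 8.19 against 2.08. On the log2 scale 2 of the 10 genes remained past that value, Clic6 (0.644) and Otx2 (0.658). In Ctrl mice Aqp1 of mouse 144, at 6.39 FPKM against 3.17 in the next, had a share of 0.514, past the critical value of 0.493 for 9 mice. In total 12 of 60 groups of values, the 10 genes in 3 groups of mice on both scales, were past the critical value. Chance gives about 1 in 20 for values of normal shape, which the skewed FPKM values are not. No group of Ttr values was among the 12. The genes share these mice, so the 12 are not independent.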

How the results depend on the processing

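No member was called at an adjusted p under 0.05 in any of the 3 comparisons under any setting. All 10 stayed higher in EtOH than in Ctrl mice under every setting, Ttr by 2.36 to 3.68 with each mouse left out in turn, and likewise in EtOH-UA against Ctrl mice, Ttr by 1.08 to 2.64. The number of all genes called was 0, and 1 in EtOH against Ctrl mice with array quality weights. With single mice left out it was 0 to 1 in each comparison, the mice being Ctrl 203, EtOH-UA 178 and EtOH-UA 179. In EtOH-UA against EtOH mice the sign was not stable. Kl turned to 0.00782 with a pseudocount of 1, 0.115 with array quality weights and 0.0424 without the EtOH and EtOH-UA mice highest in Ttr, an alternative chosen after seeing the data, and Prlr to 0.00608, 0.0243 and 0.0475. With each mouse left out in turn the difference was -0.27 to 0.31 for Kl, -0.94 to 0.18 for Clic6, -0.77 to 0.21 for Otx2, -0.54 to 0.20 for Sostdc1, -0.98 to 0.0381 for Aqp1, -0.31 to 0.30 for Prlr and -0.97 to 0.0333 for Slc4a5. EtOH-UA mouse 141 turned all 7 of these, EtOH mouse 47, EtOH-UA mouse 142 and EtOH-UA mouse 178 each turned Kl, Sostdc1 and Prlr, and EtOH mouse 189 turned Kl. The sign held for Ttr (-1.92 to -0.35), Folr1 (-1.17 to -0.03) and Kcne2 (-1.18 to -0.14). Of the correlations with Ttr, Prlr in the 14 mice no longer passed without the 2 farthest mice (r = 0.738). Below the gap 3 lost their call: Clic6 with a pseudocount of 1 (0.739) and without the 2 farthest mice (0.782), Otx2 with a pseudocount of 1 (0.739) or 0.01 (0.811) and without these mice (0.753), and Slc4a5 likewise (0.673, 0.758 and 0.854), while Kcne2 turned to 0.224 without them. With 6 mice fewer permutations exist; the cause of the other changes was not tested. Every other value kept its direction and its side of the threshold. The median of all genes stayed within -0.016 and 0.010 on the log2 scale under every setting. Members near 0.1 FPKM rest on few fragments, which limits what the mice below the gap can show. No paired analysis was possible because the groups hold separate mice, assigned at random, and the paper links none across groups. A block by replicate number could not be fitted either, because the columns carry mouse numbers and not the replicate numbers of the labels.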
